A study of Mus musculus with 36 samples.

Results

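The 5 mouse genes of the lysyl oxidase family (Lox, Loxl1, Loxl2, Loxl3 and Loxl4) and 4 genes of elastic fibre proteins (Eln, Fbn1, Fbn2 and Fbln5) were followed through early reprogramming of fibroblasts, with and without an inhibitor of DOT1L. The 9 genes were picked by symbol among the 20325 genes in the tables, and all 9 were present and tested in every fit. They were chosen in part because Lox stands higher in cells given the inhibitor. The values of Lox in inhibitor against control cells are therefore given as a description, with no test, and the counts for those comparisons run over the 8 other genes.

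Polyadenylated RNA was sequenced in 36 libraries, which fall into 18 groups of 2. The fibroblasts were mouse embryonic fibroblasts (MEFs) taken from embryos at E13.5. They were homozygous for a cassette at the Col1a1 locus that encodes Oct4, Klf4, Sox2 and c-Myc and heterozygous for the reverse tetracycline transactivator at the Rosa26 locus, so that doxycycline turns the factors on. SGC0946 blocks DOT1L, the enzyme that methylates histone H3 at lysine 79 in transcribed genes, and DMSO served as its control. The timecourse held untreated MEFs, cells after 2 days of doxycycline with DMSO or with the inhibitor, and cells after 4 days of doxycycline. The day 4 cells received DMSO throughout, the inhibitor on days 0 to 2 (early window), on days 2 to 4 (mid window) or on days 0 to 4 (full window). In the sort experiment, cells after 3.5 days of doxycycline were separated by FACS into CDH1- and CDH1+ cells and kept in doxycycline with DMSO or the inhibitor until day 5.5. In the lentivirus experiment, MEFs carried an empty or a Cdh1 lentivirus and were left as MEFs or given doxycycline for 2 days with DMSO or the inhibitor. The last group was V6.5 mouse embryonic stem cells (ESCs), from which feeder cells were depleted 24 hours before harvest. Reprogramming cells and ESCs grew on irradiated feeder MEFs and the MEF groups are not described so. RNA of feeders, which are fibroblasts themselves, cannot be told apart from that of the cells on top.

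Lysyl oxidases are copper enzymes that oxidise lysines of collagen and elastin, the step from which the cross-links of the extracellular matrix form. Lox and Loxl1 are the members best known for elastin and fibrillar collagen. Loxl2, Loxl3 and Loxl4 share a longer protein with scavenger receptor domains ahead of the catalytic part. Elastic fibres have a core of elastin, encoded by Eln, laid down on microfibrils of fibrillin 1 and fibrillin 2, encoded by Fbn1 and Fbn2. Fibulin 5, encoded by Fbln5, binds both elastin and Loxl1 and helps to place elastin on the microfibril. Fibroblasts and smooth muscle cells are the textbook sources of these proteins.

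The coding stretch in which the 4 Loxl genes are most alike is shown because it tells how far reads of one family member could be mistaken for another. These 60 bases are written 5′ to 3′ in the sense of the gene, from the GENCODE annotation of build GRCm38, and capitals mark the 39 positions at which all 4 are identical. The stretch lies in exon 4 of 7 of Loxl1 (chr9:58293618-58293677, minus strand), in exon 11 of 14 of Loxl2 (chr14:69689077-69689136, plus strand), in exon 11 of 14 of Loxl3 (chr6:83050165-83050224, plus strand) and in exon 12 of 15 of Loxl4 (chr19:42598708-42598767, minus strand).
Loxl1: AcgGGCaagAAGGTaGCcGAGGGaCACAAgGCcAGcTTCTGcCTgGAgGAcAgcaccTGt
Loxl2: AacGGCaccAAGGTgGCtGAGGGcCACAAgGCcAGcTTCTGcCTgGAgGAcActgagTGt
Loxl3: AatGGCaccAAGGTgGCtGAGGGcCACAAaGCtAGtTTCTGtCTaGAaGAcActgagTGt
Loxl4: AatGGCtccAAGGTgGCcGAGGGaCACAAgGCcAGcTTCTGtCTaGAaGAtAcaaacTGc
Loxl2 and Loxl3 were the closest pair, with 53 of 60 bases identical, and Loxl1 and Loxl3 the most distant, with 42. The best match of Lox to this stretch was identical to Loxl2 at 43 of 60 bases. No run of 50 bases was shared exactly between the annotated transcripts of any of the 9 genes.

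Eln carries a stretch of its own kind, shown because it is the part of the gene where short reads repeat within it. The 90 bases below, from exon 31 of 37 (GRCm38, chr5:134707520-134707609, minus strand), are printed 5′ to 3′ in the sense of the gene. Capitals mark bases identical to the base found 15 positions earlier in the gene, which holds for 85 of the 90.
Eln: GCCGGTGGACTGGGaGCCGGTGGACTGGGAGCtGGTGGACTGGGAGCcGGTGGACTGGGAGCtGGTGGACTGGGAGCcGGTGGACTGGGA

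Total expected counts ran from 32.9 M to 50.9 M per timecourse library, from 34.9 M to 43.1 M in the sort, from 18.5 M to 35.9 M in the lentivirus experiment and from 30.7 M to 35.2 M for the ESCs (M, 1000000 counts). Levels of a gene across groups are given as CPM, the counts per 1000000 counts of the library, scaled by TMM within each experiment, and levels between genes as TPM, which are set to a total of 1000000 per library and allow for gene length. The summed CPM of 10 fibroblast markers was 28870 to 28880 in timecourse MEFs, 11540 to 11840 in day 2 controls and 13140 to 13160 in day 4 controls, with none of the 10 at 0 in those groups. It was 29110 to 31350 in the lentivirus MEFs, 12340 to 14740 in the lentivirus cells at day 2, and 348.7 to 390.7 in the ESCs. In these bulk samples fewer cells of a type and less RNA per cell cannot be told apart. The titles number replicates 1 and 2 but do not say whether these came from separate embryos or cultures. The p-values therefore set a difference against the spread between libraries, which may be technical. That spread was estimated over all groups of a fit together, not from the compared libraries alone. One MEF library with the Cdh1 virus (replicate 2) is a MEF by its title and treatment but a day 2 cell by its source field, and it was kept with the MEFs.

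Lox was the most abundant of the 9 genes in MEFs. Its level was 826 ± 76.9 TPM (SD, n = 2) in timecourse MEFs, 32.2% of the 2564 TPM of the 9 genes together, and 1696 ± 20.4 TPM (SD, n = 2) in MEFs with the empty virus, 55.4% of 3061 TPM. Lox also ranked first among the 9 in every day 2 and every sort group. In day 4 controls, at 175 ± 0.941 TPM (SD, n = 2), it ranked behind Fbn2 and Fbn1, and its share of the summed TPM was 14.5%. Loxl4 ranked ninth in both MEF groups without Cdh1 virus, with 32.6 ± 1.33 TPM in the timecourse and 19.1 ± 0.757 TPM with the empty virus (SD, n = 2).

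**Figure D1:**
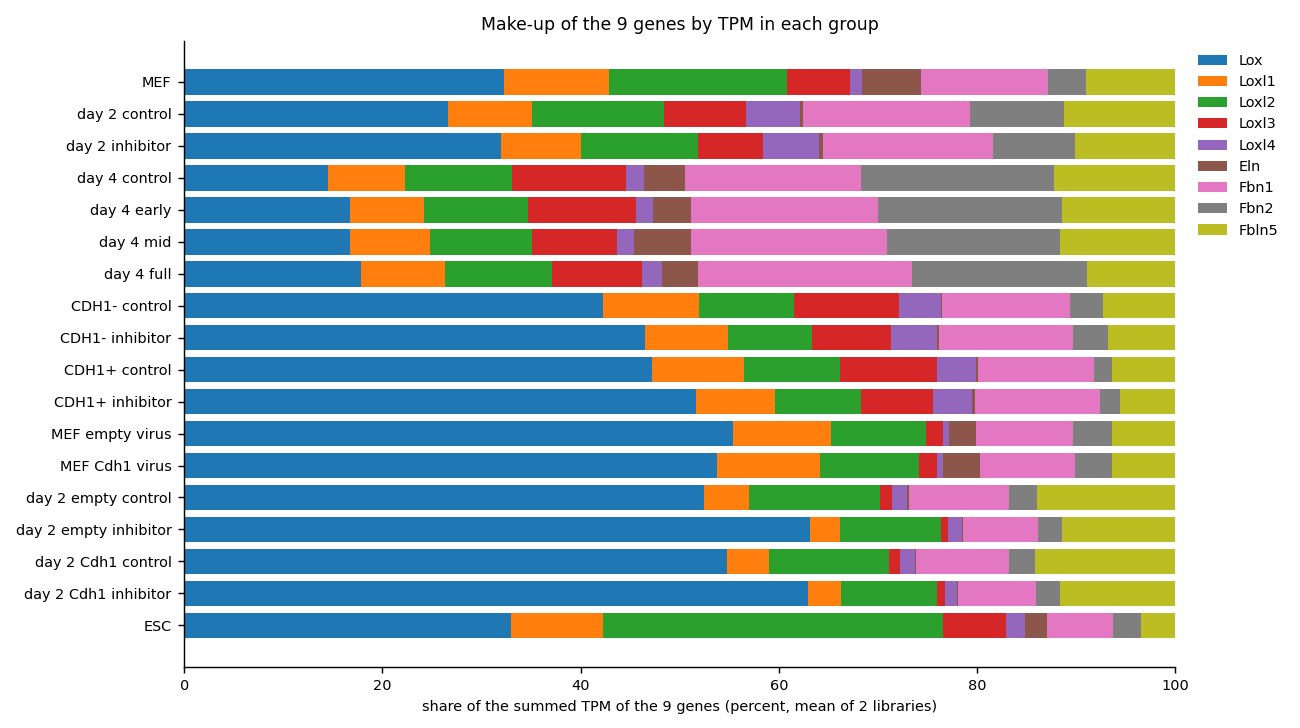
Each bar is 1 of the 18 groups and its colours give the share of each gene in the summed TPM of the 9 genes, in percent, from the means of 2 libraries. Lox (blue) takes 32.2% in timecourse MEFs, 14.5% in day 4 controls and 63.2% in day 2 cells with the empty virus and the inhibitor.

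In the first 2 days of factor expression, 4 of the 5 lysyl oxidases fell and Loxl4 rose. Lox stood at 1542 and 1691 CPM in timecourse MEFs, at 508 and 501 CPM in day 2 controls and at 322 and 323 CPM in day 4 controls. The level was lowest at day 4. The change from MEFs was a log2 fold change of -1.68 ± 0.0348 (SE) at day 2 (edgeR quasi-likelihood test, adjusted p = 2.22e-34) and of -2.33 ± 0.0357 at day 4 (adjusted p = 3.09e-39). Loxl1 stood at 511.6 and 477.5 CPM in MEFs, 150.2 and 146.9 CPM at day 2 and 159.3 and 161 CPM at day 4, so that nearly all of its change lay in the first 2 days. Loxl2 did likewise, at 1297 and 1317 CPM in MEFs, 369 and 363.2 CPM at day 2 and 348 and 345.7 CPM at day 4. Loxl3 followed another course. It was 356 and 355.4 CPM in MEFs, 177 and 176.3 CPM at day 2 and 290.3 and 285.2 CPM at day 4. Its log2 change was -1.01 ± 0.0341 from MEFs to day 2 and 0.70 ± 0.0341 from day 2 to day 4 (adjusted p = 6.16e-27 and 1.65e-21 in edgeR). Loxl4 went the other way, with 96.0 and 97.9 CPM in MEFs, 155.9 and 154.4 CPM at day 2 and 60.9 and 60.5 CPM at day 4. Its log2 change was 0.68 ± 0.0356 to day 2 and -1.36 ± 0.0367 from day 2 to day 4 (adjusted p = 2.35e-20 and 5.84e-30 in edgeR).

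Of the elastic fibre genes, Eln, Fbn1 and Fbln5 fell at day 2 and were higher again at day 4, and Eln moved furthest. Eln was 330.1 and 294.3 CPM in MEFs, 6.44 and 6.02 CPM in day 2 controls and 98.0 and 95.5 CPM in day 4 controls. Its groups were far apart: day 2 held 0.0199 of the MEF level, and day 4 was 15.5-fold above day 2. The log2 changes were -5.65 ± 0.0682 and then 3.96 ± 0.0727 (adjusted p = 2.29e-30 and 5.51e-26 in edgeR). Fbn1 went from 1701 and 1867 CPM to 895.5 and 883.5 CPM at day 2 and 1094 and 1107 CPM at day 4, a fold of 0.499 against MEFs and a log2 change of 0.31 ± 0.0335 from day 2 to day 4. Fbn2, the fibrillin known for its embryonic expression, stood apart. It was 541 and 592.8 CPM in MEFs, 528 and 527.1 CPM at day 2 and 1267 and 1277 CPM at day 4. The log2 change was -0.10 ± 0.0342 to day 2 (adjusted p = 0.0065 in edgeR) and 1.27 ± 0.0343 from day 2 to day 4 (adjusted p = 5.31e-30), and at day 4 Fbn2, with 19.4% of the summed TPM, was the most abundant of the 9 genes. Fbln5 went from 739.7 and 736.3 CPM to 348 and 346.9 CPM and then to 436.3 and 449.3 CPM.

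By count, 8 of the 9 genes were called lower and 1, Loxl4, higher at day 2 against MEFs, where 74.4% of all 14473 genes tested were called (34% lower and 40.4% higher). At day 4 against MEFs 8 were again lower and 1, now Fbn2, was higher, where 82.2% of all genes were called (41% lower and 41.2% higher). The 2 comparisons share the MEF libraries. The median log2 change of the 9 was -1.09 at day 2, beside 0.06 over all genes, and -0.74 at day 4, beside 0.01. From day 2 to day 4, 6 rose and 3 fell, where 77.8% of all genes were called (38.1% higher and 39.7% lower). The small fall of Fbn2 at day 2 was not called without MEF replicate 2 (log2 change -0.04, adjusted p = 0.345), nor when TPM values were tested with limma in place of counts, in any of 3 settings (adjusted p from 0.18 to 0.254). From day 2 to day 4, the fall of Loxl2 (log2 change -0.08) lost its call without any 1 of the 4 libraries (adjusted p from 0.0555 to 0.16) and turned to 0.034 with upper quartile scaling (adjusted p = 0.307). It was also not called with RLE scaling (0.0677), without the low count filter (0.132) or in the 3 limma settings (0.42 to 0.431). The rise of Loxl1 (0.11) lost its call without day 2 control replicate 2 (adjusted p = 0.0578) and was 0.22 with upper quartile scaling.

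Other genes of the pathway are read against the same shares, 74.4% of all genes called at day 2 and 77.8% from day 2 to day 4. Of 17 genes of elastic fibre assembly, 3 were called higher and 13 lower at day 2 against MEFs, with a median log2 change of -0.80 beside 0.06 over all genes. The strongest calls were Mfap4 (log2 change -3.83 ± 0.0679) and Mfap2 (-2.79 ± 0.0653), which encode microfibril-associated proteins, and Fbln2 (-1.27 ± 0.0327), a fibulin. Of 14 genes of lysyl oxidase activation and collagen cross-linking, 2 were higher and 11 lower. Tll1 (-1.77 ± 0.0515) and Bmp1 (-1.17 ± 0.0346) encode proteases of the family that cuts off the lysyl oxidase propeptide, and Serpinh1 (-1.25 ± 0.0354) encodes a chaperone of collagen; all were lower. Among 6 integrin subunits of the receptors for these matrix proteins, 5 were lower and none higher, led by Itga5 (-1.56 ± 0.0341). Among 11 elastin-degrading enzymes and their inhibitors, 1 was higher and 9 lower, led by Mmp14 (-1.35 ± 0.0321), Timp2 (-0.97 ± 0.0296) and Ctsk (-1.75 ± 0.0553). From day 2 to day 4, 10 of the 17 assembly genes rose and 7 fell, with Ltbp4 higher (1.60 ± 0.0456) and Fbln2 (-1.12 ± 0.0329) and Ltbp1 (-1.47 ± 0.0401) lower. The summed CPM of 6 smooth muscle markers was 9520 to 10040 in MEFs, 2785 to 2820 at day 2 and 1906 to 1925 at day 4, and that of 6 macrophage markers 220.9 to 221.1, 43.7 to 46.0 and 157.2 to 159.7. The macrophage markers did not move together. At day 4 against MEFs Mrc1 (1.70 ± 0.056) was higher, while Lyz2 (-1.20 ± 0.042) and Csf1r (-1.14 ± 0.0755) were lower. The part of these cell types in the changes of the 9 genes was not tested.

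**Figure D2:**
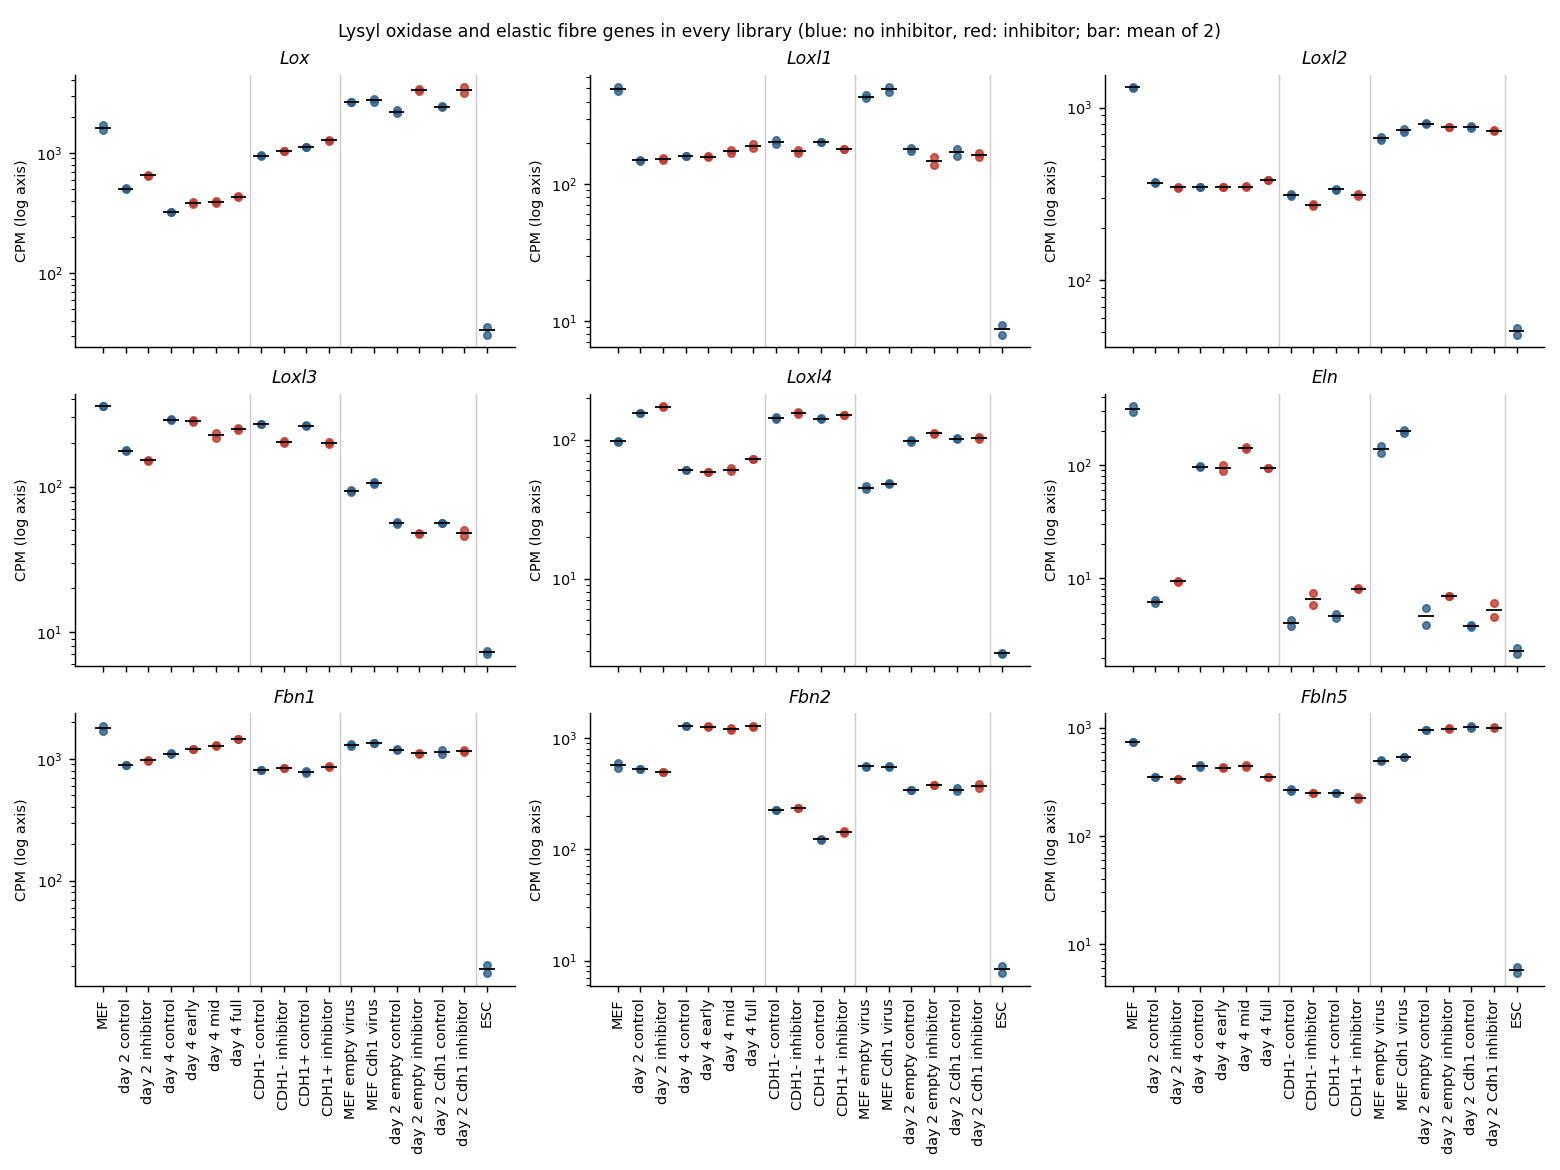
Each panel shows 1 gene in CPM on a log axis, each point is a library, bars are means of 2 libraries, and red points are cells given the inhibitor at any time. Grey lines part the timecourse, the sort, the lentivirus experiment and the ESCs. Eln drops from 294.3 to 330.1 CPM in timecourse MEFs to 6.02 to 6.44 CPM in day 2 controls and stands at 95.5 to 98.0 CPM in day 4 controls.

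The lentivirus experiment repeated the step from MEFs to day 2 in cells that had received an empty virus, and there Lox, Loxl2 and Fbln5 took another course than in the timecourse. Lox was 2635 and 2667 CPM in these MEFs and 2254 and 2160 CPM at day 2, a log2 change of -0.26 ± 0.0717 (adjusted p = 0.00241 in edgeR). Loxl2 rose, from 677.8 and 646.8 CPM to 809.2 and 797.6 CPM (log2 change 0.28 ± 0.0601, adjusted p = 0.000273). Fbln5 rose from 500.6 and 490.9 CPM to 952 and 961.2 CPM (log2 change 0.95 ± 0.0616, adjusted p = 1.85e-12). For these 3 genes the MEF and day 2 libraries did not overlap, and the share of all genes without overlap was not counted. Eln again moved furthest, from 148.5 and 128.7 CPM to 5.44 and 3.92 CPM (log2 change -4.90 ± 0.122), and Loxl4 again rose, from 44.0 and 46.3 CPM to 96.7 and 99.2 CPM (1.12 ± 0.0588). Loxl1 (-1.27 ± 0.0732), Loxl3 (-0.71 ± 0.0634) and Fbn2 (-0.69 ± 0.0633) fell, and Fbn1 (-0.13 ± 0.0665, adjusted p = 0.101) was not called. In all, 3 of the 9 were called higher and 5 lower, where 66% of all 15044 genes tested were called (33.4% higher and 32.7% lower).

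With the Cdh1 virus, 2 of the 9 were called higher and 6 lower from MEFs to day 2, beside 66% of all genes (33.4% higher and 32.6% lower). Loxl4 (1.08 ± 0.0576) and Fbln5 (0.93 ± 0.0615) rose, and Eln (-5.71 ± 0.122), Loxl1 (-1.52 ± 0.0734), Loxl3 (-0.91 ± 0.0624), Fbn2 (-0.69 ± 0.0631), Fbn1 (-0.25 ± 0.0665) and Lox (-0.18 ± 0.0716, adjusted p = 0.0274) fell. Loxl2, with 720.4 and 752.9 CPM in MEFs and 764.6 and 780.2 CPM at day 2, was not called (adjusted p = 0.326). The fall of Lox lost its call without MEF replicate 1 (adjusted p = 0.17), without day 2 control replicate 1 (0.129) and without day 2 control replicate 2 (0.0683). When TPM values were tested with limma in place of counts, the rise of Loxl2 with the empty virus was not called (log2 change 0.07, adjusted p = 0.307) and Fbn1 was called lower (-0.34, adjusted p = 0.000411). The fall of Lox was then -0.48 with the empty and -0.36 with the Cdh1 virus, and that of Fbn1 with the Cdh1 virus -0.42. Fbn1 was also called lower by DESeq2 (-0.14, adjusted p = 0.0231) and by edgeR on the compared groups alone (-0.13, adjusted p = 0.0348). TPM moved the median of all genes by -0.16 in that comparison.

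The difference between the experiments was itself tested in a fit over the 26 timecourse and lentivirus libraries, which was chosen after the data were seen. The change from MEFs to day 2 differed between the empty-virus cells and the timecourse cells for 9 of the 9 genes, of which 8 were higher and 1 lower with the virus, where 57.6% of all 14808 genes tested differed (29.4% higher and 28.2% lower). It was higher with the virus by a log2 difference of 2.11 ± 0.0589 for Loxl2, 2.03 ± 0.0599 for Fbln5 and 1.42 ± 0.0715 for Lox, and lower by -0.59 ± 0.0666 for Fbn2. The other 5 genes were higher by 0.29 (Loxl3) to 0.88 (Fbn1). When TPM values were tested with limma, Loxl3 was not called in any of 3 settings (0.05 to 0.06, adjusted p from 0.394 to 0.523), and the difference was 0.21 for Loxl1 and from 0.17 to 0.19 for Loxl4, beside 0.46 and 0.44 from the counts. TPM moved the median of all genes by -0.23 in this comparison. The virus, the library layout and the experiment cannot be told apart here, since the timecourse libraries were paired-end and the lentivirus libraries are not described so. Of 13 activation and cross-linking genes tested there, 8 were higher and 2 lower. Tll1 (2.92 ± 0.0783) and Pcolce2 (2.65 ± 0.104), which encodes an enhancer of procollagen processing, differed in the same direction as Lox, and Atp7a (-1.29 ± 0.0821), which encodes a copper transporter, in the other. The summed CPM of the smooth muscle markers also took opposite courses. It was 1423 to 1445 in empty-virus MEFs and 7202 to 7586 at day 2, beside 9520 to 10040 and 2785 to 2820 in the timecourse. The macrophage sum was 1249 to 1358 in empty-virus MEFs and 222.5 to 235.3 at day 2. Their part in the difference was not tested.

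In cells given the inhibitor, Lox stood above its control in all 8 comparisons, which was the reason for its choice. At day 2 of the timecourse it was 644.6 and 654.1 CPM with the inhibitor and 508 and 501 CPM without (log2 difference 0.36 ± 0.0342). At day 4 the full window gave 428.9 and 438.9 CPM, the mid window 395.6 and 385.7 CPM and the early window 377 and 391.2 CPM, beside 322 and 323 CPM in the control. Those differences were 0.43 ± 0.0347, 0.28 ± 0.0349 and 0.25 ± 0.0348, and they share the control libraries. Inhibitor and control libraries did not overlap at either day, which restates the choice of Lox and is no test. The early and mid windows overlapped each other (difference -0.02 ± 0.0348), and the full window lay above both. With the empty virus, Lox was 3399 and 3276 CPM with the inhibitor and 2254 and 2160 CPM without (0.60 ± 0.0719). With the Cdh1 virus it was 3122 and 3536 CPM beside 2387 and 2444 CPM (0.46 ± 0.0717). The lowest differences were in the sort, 0.13 ± 0.0239 in CDH1- cells and 0.17 ± 0.0238 in CDH1+ cells.

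Among the other lysyl oxidases, Loxl3 was called lower with the inhibitor in 7 of the 8 comparisons. The day 4 windows share their control libraries, and how many of all genes reach such a tally was not counted. Both calls of the lentivirus experiment were lost without single libraries and in limma on TPM, as given below. At day 2 it was 150.9 and 151.5 CPM with the inhibitor and 177 and 176.3 CPM without (log2 change -0.22 ± 0.0348, edgeR adjusted p = 5.92e-06). At day 4 it was 252.2 and 244.2 CPM with the full window and 216.6 and 234.1 CPM with the mid window, beside 290.3 and 285.2 CPM in the control (-0.21 ± 0.0334, adjusted p = 1.85e-06, and -0.35 ± 0.0339, adjusted p = 9.96e-11). With the early window it was 288 and 276 CPM (-0.03 ± 0.0333, adjusted p = 0.729). Both mid-window libraries lay below the full-window libraries, and these lay below the early-window and control libraries. Loxl4 rose at day 2 (0.15 ± 0.0339, adjusted p = 0.00114) and with the full window (0.27 ± 0.0383, adjusted p = 3.87e-07), from 60.9 and 60.5 CPM to 73.0 and 72.9 CPM. Loxl1 rose with the full window (0.25 ± 0.036, adjusted p = 4.8e-07), and so did Loxl2 (0.14 ± 0.0299, adjusted p = 0.000343), which at day 2 had been lower (-0.09 ± 0.0299, adjusted p = 0.0418).

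Eln was higher with the inhibitor at day 2 and, at day 4, after the mid window but not after the early or full window. At day 2 it was 9.39 and 9.44 CPM with the inhibitor and 6.44 and 6.02 CPM without (log2 change 0.60 ± 0.102, edgeR adjusted p = 0.000104). After the mid window it was 138.5 and 143.1 CPM, beside 98.0 and 95.5 CPM in day 4 controls (0.54 ± 0.0483, adjusted p = 2.25e-09). After the full window it was 93.6 and 93.5 CPM (difference -0.05, 95% interval from -0.16 to 0.07) and after the early window 99.3 and 88.4 CPM (-0.05, from -0.16 to 0.07). The mid window differed from both. Eln was lower after the early than after the mid window by -0.59 ± 0.0484 (adjusted p = 8.97e-10) and lower after the full than after the mid window by -0.59 ± 0.0485 (adjusted p = 7.34e-10). Fbn1 was higher at day 2 of the timecourse (0.13 ± 0.0335, edgeR adjusted p = 0.00591) and after every window at day 4. It was 1466 and 1450 CPM after the full window and 1263 and 1300 CPM after the mid window. The early window gave 1203 CPM in both libraries, beside 1094 and 1107 CPM in the control. The log2 differences of Fbn1 from the day 4 control were 0.41 ± 0.0334, 0.22 ± 0.0335 and 0.13 ± 0.0334 for the full, mid and early windows. Fbln5 was lower with the full window (349.8 and 353 CPM beside 436.3 and 449.3 CPM, -0.33 ± 0.0307, adjusted p = 9.42e-12) and was not called in the early or mid window or at day 2. Fbn2 fell at day 2 (490.7 and 490.9 CPM beside 528 and 527.1 CPM, -0.10 ± 0.0342, adjusted p = 0.0282) and after the full window was 1286 and 1256 CPM beside 1267 and 1277 CPM (difference -0.001, 95% interval from -0.08 to 0.08).

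**Figure D3:**
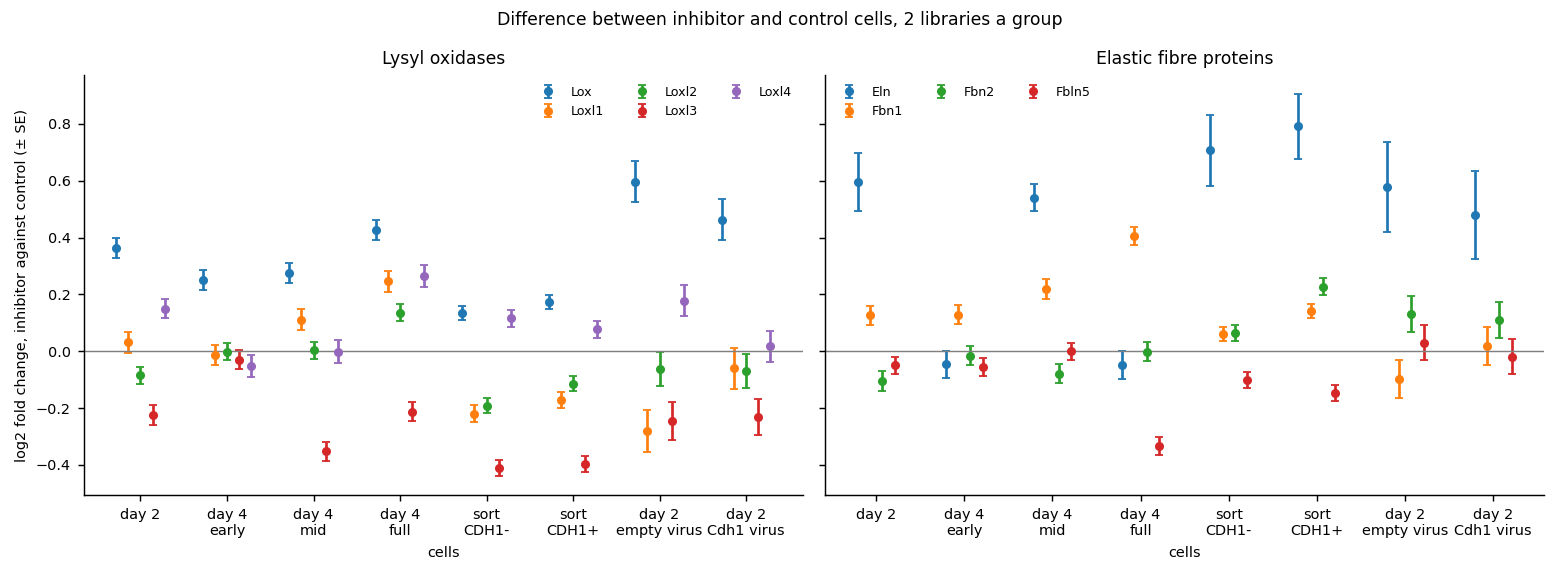
Points are log2 fold changes of inhibitor against control cells with SE bars in the 8 comparisons, 2 libraries a group, with the lysyl oxidases at left and the elastic fibre proteins at right. Lox lies above 0 in all 8 and Loxl3 below 0 in all 8, and Eln lies near -0.05 in the early and full windows of day 4 and between 0.48 and 0.79 elsewhere.

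By count over the 8 genes other than Lox, 3 were called higher and 3 lower at day 2, where 17.8% of all genes were called (8.73% higher and 9.11% lower). At day 4 the full window gave 4 higher and 2 lower, where 34.8% of all genes were called (19% higher and 15.8% lower). The mid window gave 3 higher and 1 lower, where 27.4% of all genes were called and 14% were higher. The early window gave 1 higher and 0 lower, where 5.63% were called (3.19% higher and 2.45% lower). The full against the early window gave 4 higher and 2 lower, where 31% were called (16.6% higher and 14.4% lower). The full against the mid window gave 5 higher and 2 lower, where 20.1% were called (11.6% higher and 8.51% lower). The early against the mid window gave 1 higher and 3 lower, where 21.2% were called (11% higher and 10.3% lower). These comparisons share libraries, and the median log2 change of the 8 genes was between -0.05 and 0.13 in each. Several calls with small changes were lost without 1 library. At day 2, Loxl2 and Fbn2 lost their calls without any 1 of the 4 libraries (adjusted p from 0.103 to 0.234 and from 0.129 to 0.152), and Fbn1 lost its call without control replicate 2 (0.0969) and without inhibitor replicate 2 (0.122). Loxl2 and Fbn2 were also not called at day 2 with upper quartile scaling (0.199 and 0.122) or in the 3 limma settings on TPM (0.397 to 0.407 and 0.384 to 0.488), Loxl2 not without the low count filter (0.107), and Fbn1 not in limma without a filter (0.053). Fbn1 in the early window was lost without any 1 of the 4 libraries (0.094 to 0.166) and in the 3 limma settings (0.247 to 0.356). Loxl1 in the mid window (0.11 ± 0.0365, adjusted p = 0.02) was lost without control replicate 1 (0.134), control replicate 2 (0.0984) or mid-window replicate 2 (0.256). It was also lost under DESeq2 (0.0892), without the low count filter (0.0664) and in the 3 limma settings (0.131 to 0.138). Fbn2 in the mid window, at -0.08 and not called, was called lower without mid-window replicate 2 (0.0491), under DESeq2 (0.0391), with RLE scaling (0.0357), without the filter (0.0124) and on the compared groups alone (0.0134). In the full against the mid window, Loxl1 and Loxl3 lost their calls without mid-window replicate 1 (0.123 and 0.174), Loxl1 without full-window replicate 1 (0.16), and Loxl3 without full-window replicate 1 (0.0597). In the early against the mid window, Fbn1 was lost without any 1 of the 4 libraries (0.0815 to 0.302), under DESeq2 (0.125), with RLE scaling (0.0938), without the filter (0.112) and in the 3 limma settings (0.218 to 0.306), and Loxl1 without early-window replicate 2 (0.151) or mid-window replicate 2 (0.203).

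The inhibitor effect differed between the full window at day 4 and day 2 for 5 of the 8 genes, where 9.18% of all genes differed (5.61% higher and 3.57% lower). It was higher at day 4 by a log2 difference of 0.28 ± 0.0473 for Fbn1 (edgeR interaction, adjusted p = 4.18e-05), 0.22 ± 0.0423 for Loxl2 (0.000257) and 0.21 ± 0.0513 for Loxl1 (0.00367). It was lower at day 4 by -0.65 ± 0.113 for Eln (0.000251) and -0.28 ± 0.0435 for Fbln5 (8.33e-06). Loxl3, with a difference of 0.01 (95% interval from -0.10 to 0.13), Loxl4 and Fbn2 were not called. Loxl1 lost this call without inhibitor replicate 2 of day 2 (adjusted p = 0.0574) and without full-window replicate 1 (0.0673).

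With the inhibitor at day 2, where 17.8% of all genes were called, 5 of the 17 assembly genes rose and 1 fell, and 2 of the 6 integrin subunits fell. Of the 14 activation and cross-linking genes, 3 rose and 0 fell. Emilin2 (0.58 ± 0.062) and Ltbp4 (0.28 ± 0.0488) led the assembly genes that rose, and Fbln1 (-0.23 ± 0.0412) fell. Among the degrading enzymes and inhibitors 3 were higher and 1 lower, with Timp3 (0.28 ± 0.03) and Timp1 (0.26 ± 0.0306), inhibitors of metalloproteinases, higher and Mmp14 (-0.27 ± 0.0323), a membrane metalloproteinase, lower. With the full window at day 4, where 34.8% of all genes were called, 5 assembly genes were higher and 4 lower, with Fbln1 (-0.55 ± 0.04) and Adamtsl4 (-0.51 ± 0.0408) lower and Ltbp4 (0.41 ± 0.04) higher. Tll1 (0.59 ± 0.0708) and Bmp1 (0.26 ± 0.0339) rose, and Pcolce (-0.26 ± 0.0337) fell, and 3 of the 6 integrin subunits rose, led by Itgb3 (0.50 ± 0.0519). The fibroblast sum was 11630 to 11750 CPM with the inhibitor at day 2 beside 11540 to 11840 CPM, and 13500 to 13930 CPM with the full window beside 13140 to 13160 CPM. These sums hide changes of single markers. At day 2 Dcn (log2 change 0.32), Lum (0.35) and Col1a1 (0.17) were called higher and no fibroblast marker was called lower. With the full window Lum (-1.24 ± 0.107) and Col3a1 (-0.27 ± 0.0318) were lower and Postn (0.28 ± 0.0358) was higher. The smooth muscle sum was 2291 to 2316 CPM with the inhibitor at day 2 beside 2785 to 2820 CPM, with 5 of 6 markers called lower, and 1679 to 1764 CPM with the full window beside 1906 to 1925 CPM. With the full window Actg2 (-0.29 ± 0.0348) and Tagln (-0.22 ± 0.0341) were lower, but Des (0.86 ± 0.144) was higher. The epithelial sum of 7 markers was 17.2 to 17.3 CPM beside 6.92 to 7.22 CPM at day 2, and 70.9 to 73.4 CPM beside 16.9 to 17.6 CPM at day 4. The summed CPM of Pou5f1, Sox2, Klf4 and Myc was 896.7 to 909.4 with the inhibitor at day 2 beside 1047 to 1068, and 797.3 to 863.6 with the full window beside 1013 to 1038. The part of these shifts in the values of the 9 genes was not tested.

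After the sort, Eln was higher with the inhibitor and Loxl1, Loxl2, Loxl3 and Fbln5 were lower, in CDH1- and in CDH1+ cells. Eln was 7.38 and 5.79 CPM with the inhibitor beside 3.80 and 4.29 CPM in CDH1- cells, and 8.10 and 8.17 CPM beside 4.91 and 4.49 CPM in CDH1+ cells. The log2 changes were 0.71 ± 0.124 (edgeR adjusted p = 2.99e-06) and 0.79 ± 0.115 (adjusted p = 2.09e-08). Loxl3 fell, from 267.8 and 270.9 CPM to 206 and 198.8 CPM in CDH1- cells and from 259.6 and 265.2 CPM to 202 and 196.9 CPM in CDH1+ cells (-0.41 ± 0.0282 and -0.40 ± 0.028). Loxl1 (-0.22 ± 0.03 and -0.17 ± 0.0296), Loxl2 (-0.19 ± 0.0269 and -0.11 ± 0.0265) and Fbln5 (-0.10 ± 0.0281 and -0.15 ± 0.0282) fell in both. Loxl4 was called in CDH1- cells (0.12 ± 0.0312), and Fbn1 (0.14 ± 0.0243) and Fbn2 (0.23 ± 0.0308) in CDH1+ cells. In all, 2 of the 8 were higher and 4 lower in CDH1- cells, where 18.7% of all 13968 genes were called (7.82% higher and 10.8% lower). In CDH1+ cells 3 were higher and 4 lower, where 18.8% were called (8.33% higher and 10.5% lower). In CDH1- cells, Loxl4 lost its call without control replicate 1 (adjusted p = 0.0627) or inhibitor replicate 1 (0.056), and Fbln5 without control replicate 1 (0.354) and in the 3 limma settings on TPM (0.221 to 0.309). With upper quartile scaling, Fbn1 (adjusted p = 0.00587) and Fbn2 (0.0171) were called higher in CDH1- cells too, and Loxl4 (0.0135) in CDH1+ cells, so that the difference in calls between the populations depends on the scaling. Without the low count filter Fbn1 was called in CDH1- cells (0.0314), and on the compared groups alone Loxl4 in CDH1+ cells (0.0379). In CDH1+ cells Loxl2 was lost in the 3 limma settings (0.058 to 0.0828) and Fbln5 in limma without a filter (0.0787).

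No gene of the 8 had an inhibitor effect that differed between the sorted populations in edgeR, where 0.186% of all genes did (0.0501% higher and 0.136% lower in CDH1+ cells). At an unadjusted p under 0.05, a threshold for which the share of all genes was not counted, 3 of the 8 differed (Fbn1, Fbn2 and Loxl2). DESeq2 and limma each called 0. The closest was Fbn2, with a difference of 0.16 ± 0.0422 (adjusted p = 0.0722), called without CDH1+ inhibitor replicate 2 (adjusted p = 0.0384). For Eln the 95% interval of the difference ran from -0.39 to 0.56 and for Loxl3 from -0.09 to 0.13. The smooth muscle sum was 5577 to 5626 CPM in CDH1- controls and 4073 to 4186 CPM with the inhibitor, and 6067 to 6122 CPM and 4649 to 4711 CPM in CDH1+ cells. Among the integrin subunits 5 of 6 fell with the inhibitor in each population, led by Itga5 (-0.41 ± 0.0266 and -0.36 ± 0.0262). Over all genes, 18.7% were called in CDH1- cells (10.8% lower) and 18.8% in CDH1+ cells (10.5% lower). Efemp1, which encodes fibulin 3, rose by a log2 change of 0.42 ± 0.032 and 0.32 ± 0.0312. The part of smooth muscle genes in the changes of the 9 was not tested.

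Between the populations themselves, Fbn2 differed most. It was 223 CPM in both CDH1- control libraries and 122.2 and 123.3 CPM in CDH1+ controls, a log2 change of -0.86 ± 0.0303 (edgeR adjusted p = 3.73e-48), and 233.4 and 232.5 CPM beside 147.2 and 140.3 CPM with the inhibitor (-0.70 ± 0.0294). Lox was higher in CDH1+ cells, at 1124 and 1126 CPM beside 957.2 and 940.4 CPM in controls (0.25 ± 0.0239, adjusted p = 1.49e-15) and 1290 and 1249 CPM beside 1045 and 1037 CPM with the inhibitor (0.29 ± 0.0238, adjusted p = 2.95e-19). Each of these contrasts compares cells with the same treatment. Loxl2 was higher in CDH1+ cells in both (0.11 ± 0.0267 and 0.19 ± 0.0267). Of the 9 genes, 2 were higher and 2 lower in controls, where 26.6% of all genes were called (12.8% higher and 13.8% lower). With the inhibitor 3 were higher and 2 lower, where 26.8% of all genes were called and 13.3% were lower. Fbln5 (-0.10 ± 0.0282) in controls lost its call without CDH1- control replicate 1 (adjusted p = 0.332), CDH1+ control replicate 1 (0.0505) or CDH1+ control replicate 2 (0.069), under DESeq2 (0.0541) and in the 3 limma settings (0.299 to 0.39). With the inhibitor Fbln5 lost it in the 3 limma settings (0.0531 to 0.0949). Eln with the inhibitor (0.30 ± 0.109, adjusted p = 0.0285) lost it without CDH1- inhibitor replicate 2 (0.494), CDH1+ inhibitor replicate 1 (0.0812) or CDH1+ inhibitor replicate 2 (0.109), and neither DESeq2 (0.237) nor limma (0.0639 to 0.106) called it. Without CDH1- inhibitor replicate 1 it was 0.49. Among the degrading enzymes 9 of 11 were higher in CDH1+ controls, led by Mmp9 (3.08 ± 0.111) and Ctss (4.17 ± 0.233), and the macrophage sum was 72.6 to 72.9 CPM there beside 10.2 to 10.4 CPM in CDH1- controls, with no macrophage marker at 0 in either. Its part was not tested.

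**Figure D4:**
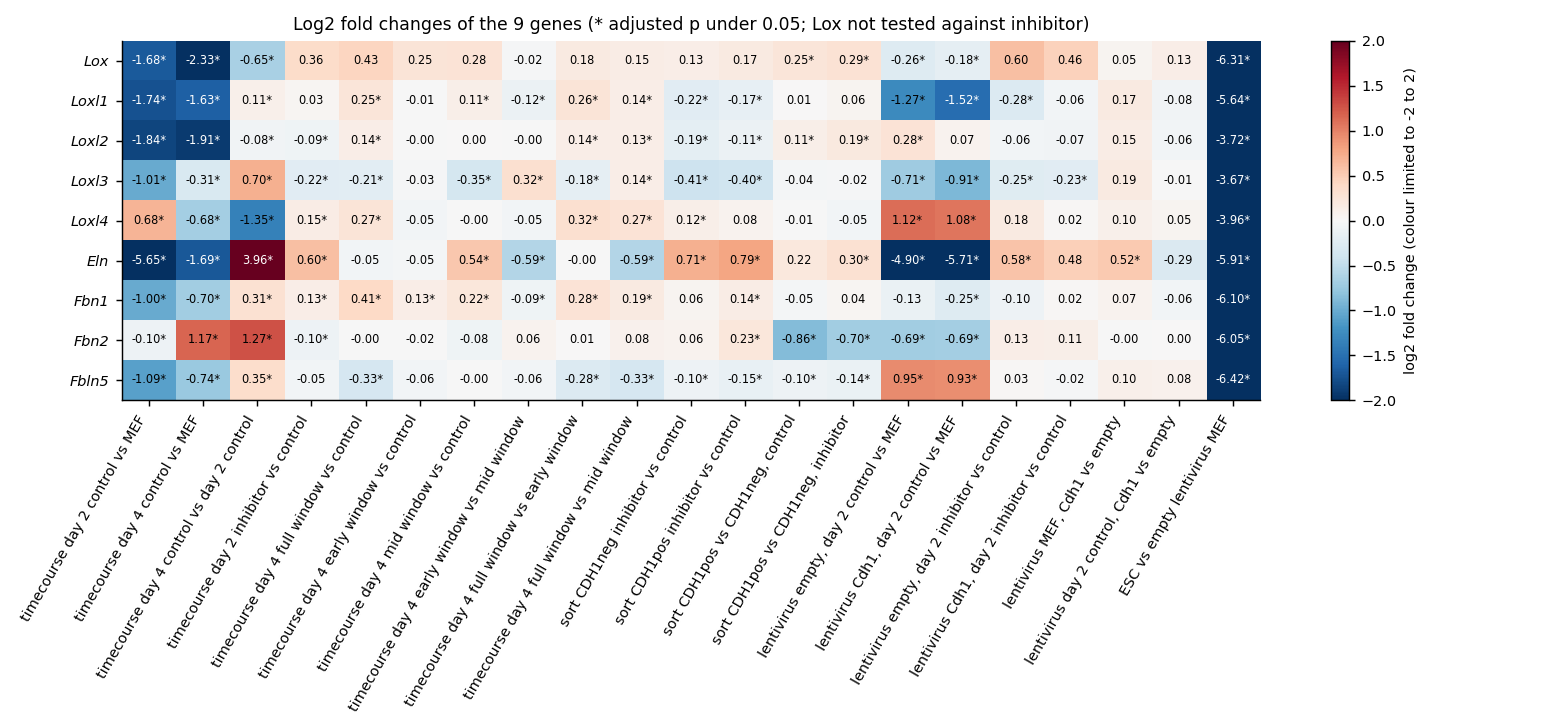
Cells give the log2 fold change of each gene (rows) in 21 comparisons (columns), stars mark an adjusted p under 0.05 in edgeR, and the colour stops at -2 and 2. Lox carries no star in the columns of inhibitor against control cells or between inhibitor windows because it was not tested there. The row of Fbn2 turns from 1.17 at day 4 against MEFs to -0.86 in CDH1+ against CDH1- controls.

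In the lentivirus experiment 3 of the 8 genes were called with the inhibitor in empty-virus cells and 1 in Cdh1-virus cells. With the empty virus, Eln was 6.94 and 6.95 CPM beside 5.44 and 3.92 CPM (log2 change 0.58 ± 0.159, edgeR adjusted p = 0.0335), Loxl1 138.7 and 157 CPM beside 184.7 and 174.8 CPM (-0.28 ± 0.0735, adjusted p = 0.0227) and Loxl3 47.1 and 48.0 CPM beside 57.2 and 55.6 CPM (-0.25 ± 0.0656, adjusted p = 0.025). Of all genes, 6.73% were called (3.22% higher and 3.52% lower, beside 1 and 2 of the 8). With the Cdh1 virus, Loxl3 was the one gene called, at 50.2 and 45.4 CPM beside 56.6 and 55.8 CPM (-0.23 ± 0.0634, adjusted p = 0.0351), where 5.05% of all genes were called (2.82% higher and 2.23% lower). Eln there was 6.06 and 4.53 CPM beside 3.91 and 3.72 CPM (0.48 ± 0.155, adjusted p = 0.0804). Fbn1, higher with the inhibitor at day 2 of the timecourse, was called with neither virus (log2 change -0.10 with the empty and 0.02 with the Cdh1 virus). Loxl4 with the empty virus was not called (0.18, adjusted p = 0.055), but was called higher with RLE scaling (0.0494), upper quartile scaling (0.0479), on the compared groups alone (0.0472) and in the 3 limma settings (0.0217 to 0.0312). In those limma settings Loxl1 (0.106 to 0.147) and Loxl3 (0.0654 to 0.0754) with the empty virus were not called, nor was Eln without a filter (0.0522). With the Cdh1 virus, Loxl3 was not called by DESeq2 (0.0516), on the compared groups alone (0.139) or in limma (0.0516 to 0.067), and DESeq2 called Eln higher (0.0429). Each of the 4 edgeR calls was lost without at least 3 of the 4 single libraries. With the empty virus, Loxl3 lost its call without any 1 of the 4 libraries (adjusted p from 0.0636 to 0.172), Loxl1 without control replicate 1 (0.205), control replicate 2 (0.0623) or inhibitor replicate 1 (0.309), and Eln without control replicate 2 (0.302), inhibitor replicate 1 (0.185) or inhibitor replicate 2 (0.138). With the Cdh1 virus, Loxl3 lost it without control replicate 1 (0.166), control replicate 2 (0.185) or inhibitor replicate 2 (0.297), and without the last of these Eln was called higher (0.0263).

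The inhibitor effect at day 2 was compared between the empty-virus and the timecourse cells in the fit chosen after the data were seen. It differed for 2 of the 8 genes, where 4.29% of all genes differed (1.96% higher and 2.34% lower): Loxl1 by -0.30 ± 0.0812 (adjusted p = 0.0267) and Fbn2 by 0.24 ± 0.0668 (adjusted p = 0.0313). Without single libraries, Loxl1 was called in 2 of 8 cases and Fbn2 in 1 of 8, with adjusted p up to 0.215 and 0.0917. In the 3 limma settings neither was called (Loxl1 0.0527 to 0.073, Fbn2 0.0683 to 0.0842), and Fbn2 was also not called with upper quartile scaling (0.0648) or without the filter (0.0769). Fbn1 (-0.22, adjusted p = 0.0534 in edgeR) was called lower with the virus under DESeq2 (-0.21, adjusted p = 0.0232), with upper quartile scaling (0.0218), without the filter (0.0308) and on the compared groups alone (0.0314). For Loxl3 the difference was -0.01 (95% interval from -0.17 to 0.14) and for Eln -0.01 (from -0.47 to 0.44). The virus, the layout and the experiment cannot be told apart here either.

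Between the Cdh1 virus, which encodes E-cadherin, and the empty virus 1 of the 9 genes differed in MEFs and 0 at day 2. In MEFs 1.14% of all genes were called (0.612% higher and 0.525% lower): Eln was 193 and 205.9 CPM with the Cdh1 virus and 148.5 and 128.7 CPM with the empty virus (log2 change 0.52 ± 0.0878, edgeR adjusted p = 0.0017). This call was lost without empty-virus replicate 2 (adjusted p = 0.0926) and without Cdh1-virus replicate 2 (0.0513), the library with the conflicting labels, and in the 3 limma settings (0.0639 to 0.232). In MEFs the macrophage sum was 733.9 to 852 CPM with the Cdh1 virus and 1249 to 1358 CPM with the empty virus. The smooth muscle sum was 1816 to 1831 CPM with the Cdh1 virus and 1423 to 1445 CPM with the empty virus, and 5 of its 6 markers were called higher, Myh11 (0.80 ± 0.121) and Tagln (0.38 ± 0.068) among them. The part of either was not tested. At day 2, 0 of the 9 genes were called in edgeR, where 0.897% of all genes were (0.146% higher and 0.751% lower), 0 had an unadjusted p under 0.05, and DESeq2 and limma called 0. The 95% interval of the difference at day 2 ran from -0.04 to 0.30 for Lox and from -0.68 to 0.11 for Eln. The inhibitor effect did not differ between the viruses for any of the 8 genes in edgeR (0% of all genes). DESeq2 and limma gave 0 calls, and 1 gene (Loxl1) had an unadjusted p under 0.05. The shares of all genes at that unadjusted threshold were not counted.

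In ESCs all 9 genes were lower than in empty-virus MEFs, where 88.7% of all genes were called (44.5% higher and 44.1% lower). Lox was 31.0 and 35.9 CPM beside 2635 and 2667 CPM (log2 change -6.31 ± 0.0918, edgeR adjusted p = 8.1e-26), and Fbln5, with the largest fall, 5.34 and 6.18 CPM beside 500.6 and 490.9 CPM (-6.42 ± 0.0843). Fbn1 (-6.10 ± 0.0857), Fbn2 (-6.05 ± 0.0838), Eln (-5.91 ± 0.131) and Loxl1 (-5.64 ± 0.0943) were close to these. Loxl4 (-3.96 ± 0.0841), Loxl2 (-3.72 ± 0.0682) and Loxl3 (-3.67 ± 0.0772) fell least, and Loxl2, at 48.3 and 52.5 CPM, was the most abundant of the 9 in ESCs by TPM, 16.7 ± 0.856 beside 16.0 ± 1.56 for Lox (SD, n = 2), which overlap within their spread. Of 16 assembly genes tested, 15 were lower and 1 higher. The fibroblast sum in ESCs, 348.7 to 390.7 CPM, was well below the 29110 to 30430 CPM of those MEFs, and 0 of its 10 markers were at 0. What feeders left after depletion gave to these values was not tested.

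Genes with the course most like Lox, Eln and Fbn1 were sought among 9861 genes over the 17 group means other than ESCs, as log2 CPM centred within each experiment. They are descriptions over points that share experiments, libraries and feeders. For Lox the closest were Arhgap29 (r = 0.979), Nox4 (0.974), an NADPH oxidase, and Pcdh9 (0.968), a protocadherin. For Eln they were Tm7sf2 (0.992), a sterol reductase, Maged2 (0.990) and Mfap2 (0.988), the microfibril-associated protein whose fall at day 2 is given above. For Fbn1 they were Pla2r1 (0.935), Igfbp2 (0.933) and Gcnt4 (0.932). Over the 7 timecourse means alone, other genes came first for Lox (Ptdss1, Tspyl4 and Ostc) and for Eln (Rhbdf1, Hmcn1 and Serf2), and 1 of the 3 for Fbn1, Gcnt4, came up in both. Among the 9 genes themselves, the 17 means of Loxl3 and Eln had r = 0.862, those of Lox and Loxl2 0.852, and those of Loxl4 and Eln -0.858.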

How the data were processed

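The members and gene lists were chosen with earlier results of these data known. The authors deposited 1 table per library with RSEM expected counts, TPM and gene lengths (in bases, used here only for the comparison of length with effective length) per gene; RSEM 1.2.4, Bowtie, Trimmomatic and the builds mm9 and hg18 are named in the submitters' processing notes. The TruSeq V2 kit and, for the timecourse and sort, 20 ng of human 293T RNA per library are given per the labels' protocols, and the tables list mouse genes only. Groups come from the titles. Expected counts were rounded and tested with edgeR 4.0.16 in R 4.3.3 (TMM, at least 10 counts per filterByExpr and 15 in total, robust quasi-likelihood, Benjamini-Hochberg over all genes, threshold 0.05) in 3 fits: timecourse (14 libraries, 14473 genes), sort (8, 13968) and lentivirus with ESCs (14, 15044). A fit of 26 libraries was added after the data were seen. Intervals are 95% with the residual degrees of freedom of the fit (7, 4, 7 and 13). The tests add degrees of freedom borrowed over genes, so that these intervals are wider than the tests imply. Alternatives were DESeq2 1.42.0, 2 other scalings, no filter, limma 3.58.1 on log2(TPM + 1) with a TPM of at least 1 in 2 libraries, log2(TPM + 0.1), a replicate block, the groups alone and leaving out each library. TPM levels are given to compare genes within a library, since gene length and effective length differ in the timecourse and sort libraries and not in the others. The limma settings compare TPM between libraries, and between the timecourse and lentivirus cells they carry this difference too. No 2 replicates were alike within sampling noise (chi-square per degree of freedom of 1.88 to 13.9 over genes). On simulated data, 78% of 50 genes changed 1.2-fold were recovered at day 2 of the timecourse, 84% in CDH1- cells and 20% with the empty virus, and 94%, 98% and 86% at 1.5-fold. Among unchanged genes, 10, 6 and 10 were called. The simulations held only the 2 compared groups and gave every gene the same spread. Their shares therefore do not tell how many such changes the fits above would find. Every one of the 9 members is named; of the other lists, up to 3 genes with the smallest p per comparison; and for Lox, Eln and Fbn1 the 3 genes with the highest correlation. Where a list symbol is an older name in the tables (Leprel1, Leprel2, Lepre1, Emr1), that was used. Sequences are from GENCODE M21 and are not of the authors' build; no sequence of Lox or Fbn2 is shown.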

Additional observations from a re-analysis of the deposited data

Results flagged for a closer look

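Differences between 2 effects were flagged where an edgeR interaction term passed the threshold. The inhibitor effect in the full window of day 4 differed from that at day 2 by a log2 difference of 0.21 for Loxl1 (adjusted p = 0.00367), 0.22 for Loxl2 (0.000257), -0.65 for Eln (0.000251), 0.28 for Fbn1 (4.18e-05) and -0.28 for Fbln5 (8.33e-06). For Eln, all day 2 inhibitor libraries lay above their controls, and at day 4 both full-window libraries lay below them. The 2 effects share no library.

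The change from MEFs to day 2 differed between the empty-virus and the timecourse cells by 1.42 for Lox (adjusted p = 1.5e-18), 0.46 for Loxl1 (8.41e-06), 2.11 for Loxl2 (5.1e-26), 0.29 for Loxl3 (0.000334), 0.44 for Loxl4 (3.16e-07), 0.75 for Eln (0.000896), 0.88 for Fbn1 (1.06e-13), -0.59 for Fbn2 (2.04e-09) and 2.03 for Fbln5 (2.29e-25). Loxl2 and Fbln5 rose in one experiment and fell in the other. In limma on TPM values, Loxl3 was not called in any of 3 settings (adjusted p from 0.394 to 0.523). The inhibitor effect at day 2 differed between these cells by -0.30 for Loxl1 (0.0267) and 0.24 for Fbn2 (0.0313). Neither was called in the 3 limma settings. Both came from the edgeR fit chosen after the data were seen, in which virus, layout and experiment cannot be told apart.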

How the results depend on the processing

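Each group held 2 libraries, and the fewest counts behind a value were 73 for Eln in each ESC library and 87 for Loxl4 in 1 of them. The causes of the changes below were not tested. Calls among the 8 genes with the inhibitor at day 2 of the timecourse numbered 6, and 3 with limma on log2(TPM + 1) and no filter, and 3 to 4 without 1 library. In the early window the 1 call became 0 with limma on log2(TPM + 1), on log2(TPM + 0.1) and without a filter, and 0 without 1 library. Early against mid window gave 4 calls, and 2 to 3 without 1 library. CDH1+ against CDH1- cells with the inhibitor gave 5, and 3 in the 3 limma settings. The sort interaction gave 0, and 0 to 1 without 1 library. The mid window gave 4, and 3 to 5 under the other settings. The inhibitor gave 6 in CDH1- cells and 7 in CDH1+ cells, and 5 to 8 under the other settings in each. The inhibitor with the empty virus gave 3, from 1 to 4 under the other settings and 0 to 1 without 1 library; the 1 call, in limma with no filter, was Loxl4, which is none of the 3. The inhibitor with the Cdh1 virus gave 1 (Loxl3), and 1 under DESeq2 (Eln in its place), 0 with limma in 3 settings and with the compared groups alone, and 0 to 1 without 1 library. Cdh1 against empty virus in MEFs gave 1, and 0 in the 3 limma settings and 0 to 1 without 1 library. The day 2 inhibitor effect between experiments gave 2, from 0 in the 3 limma settings to 3 in others, and 0 to 2 without 1 library. The change from MEFs to day 2 between experiments gave 9, and 8 in limma, without Loxl3. Loxl2 from day 2 to day 4 turned to a log2 change of 0.034 with upper quartile scaling, which moved the median of all genes by 0.11. Lox in the early against the mid window ran from -0.050 to 0.0033 without 1 library. Scaling by TPM moved the median of all genes by -0.16 and -0.11 from MEFs to day 2 with the empty and the Cdh1 virus, by -0.38 in ESCs and by -0.23 in the difference between experiments at day 2. The replicate numbers were not taken as pairs. The difference between replicates 1 and 2 of a group was correlated over genes with that of the group it was compared with. These correlations ran from -0.239 to 0.337 over 21 comparisons of 2 pairs each, with 4 above 0.1. A replicate block ended 1 call, Loxl2 with the inhibitor at day 2 (-0.085, edgeR adjusted p = 0.061, 5 calls in place of 6), and changed no other call. Calls over all genes moved by over 1.5 times as follows. With the inhibitor at day 2 there were 2583, from 1582 to 3589 under the other settings and 1510 to 1583 without 1 library. The early window gave 815, from 425 to 1544 and 380 to 450. Without 1 library, the mid window went from 3968 down to 2647, early against mid from 3075 to 1667, full against mid from 2910 to 1749, and day 4 against day 2 effects from 1329 to 880 (871 under the other settings). In the sort, the lowest counts under the other settings were 1335 of 2607 for the inhibitor in CDH1- cells, 1372 of 2631 in CDH1+ cells (1674 without 1 library), 2091 of 3717 between control populations, 2005 of 3749 between inhibitor populations and 3 to 33 in place of 26 for the interaction. With the viruses, the empty-virus inhibitor count of 1013 fell to 270 without 1 library. The Cdh1-virus count of 759 ran from 138 to 908, and from 124 to 1253 without 1 library. Their interaction went from 0 to 26, and to 2 without 1 library. Cdh1 against empty virus gave 77 to 254 in place of 171 in MEFs and 59 to 208 in place of 135 at day 2, with 87 and 63 as the lowest without 1 library. The inhibitor effect between experiments gave 418 to 936 in place of 636, and 297 without 1 library.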
